A study of Xenopus tropicalis with 18 samples.

Results

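The genes described here are 10 markers and effectors of the Spemann organizer, gsc, chrd, nog, fst, cer1, dkk1, frzb, otx2, lhx1 and hhex, out of the 28850 genes measured. They were chosen by name and without a cut on a measured value, but with earlier results of these data known. Of these, 9 stood in the tables under their own symbol, and chrd stood there as chrd.1, the RefSeq symbol for which chrd is listed as a synonym. All 10 passed the filter on low counts in each knockdown, stage and interaction comparison.

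The Spemann organizer is the dorsal signalling centre of the amphibian gastrula. Its cells secrete antagonists that act on BMP, Nodal and Wnt signals outside the cell. They so keep the ventralizing BMP and posteriorizing Wnt signals away from the dorsal side. The centre is set up in the blastula, where maternal Wnt signalling on the dorsal side and Nodal signalling from the vegetal cells together switch on the homeobox genes gsc, otx2, lhx1 and hhex and the genes of the secreted antagonists.

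RNA was measured in whole Xenopus tropicalis embryos, in poly(A)-selected libraries, at stage 9 (late blastula) and stage 10.5 (early gastrula). Foxi2 morphants carried a morpholino (MO), an antisense oligonucleotide, against the forkhead factor Foxi2. Sox3 morphants carried a MO against the HMG box factor Sox3. Each MO was given on the animal side of wild-type embryos, at the 1-cell stage by the labels and at the 1-cell or 2-cell stage by the study's methods, and each factor and stage had controls of its own, which are wild-type embryos by the study's text. The labels also give the controls the treatment "Morpholino", so whether the controls were injected is not settled by the sources used here. Foxi2 at stage 9 had 3 morphants and 3 controls, and the other comparisons had 2 and 2, in all 18 libraries. How much of the MO reached the cells that form the organizer was not measured. Nothing states that the replicates came from separate clutches, so the p-values measure the spread between these samples, which may in part be technical. In whole embryos, fewer organizer cells and less RNA per organizer cell cannot be told apart.

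The libraries held 12740571 to 27866261 expected counts each. Levels are given as CPM, the count of a gene scaled to a common library total with TMM factors, and they are compared between samples of the same gene only. The targeted transcripts were not lower in morphants. Foxi2 RNA was at 282 to 399 CPM in Foxi2 morphants, against 116 to 357 CPM in their controls, and sox3 RNA was at 879 to 1731 CPM in Sox3 morphants, against 481 to 667 CPM in theirs. A MO that acts on translation need not lower its target's RNA, so these levels do not check the knockdown. The study reports Western blots of morphants at both stages in which Foxi2 and Sox3 protein were substantially depleted.

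Both replicate 1 libraries of the Foxi2 series at stage 9 stood apart. They were not shallow, with 16867730 expected counts in the morphant and 17389944 in the control. The summed CPM of the 10 organizer genes was 4.99 in this morphant and 5.93 in its control, while it was 445 and 989 in the other Foxi2 morphants and 184 and 645.5 in the other Foxi2 controls of that stage. The endoderm markers, summed over 9 genes, were low in the same libraries, with 13.9 CPM in the morphant and 13.6 CPM in the control of replicate 1. In the other replicates they summed to 405 and 1189 CPM in morphants, and to 179 and 794 CPM in controls. The mesoderm markers, summed over 7 genes, were at 8.86 CPM in the morphant and 12.5 CPM in the control of replicate 1, against 411 and 981 CPM in the other morphants and 265 and 827 CPM in the other controls. Ectoderm marker sums were 1544 CPM in the morphant and 1471 CPM in the control of replicate 1. They were 1707 and 2501 CPM in the other morphants and 1552 and 3002 CPM in the other controls. Several organizer genes had hardly any reads in the replicate 1 libraries. In the morphant of replicate 1, chrd.1 had 1 count, cer1 had 3 and frzb had 3, and in its control cer1 had 2. A value of at most 3 counts was treated as the floor.

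**Figure D1:**
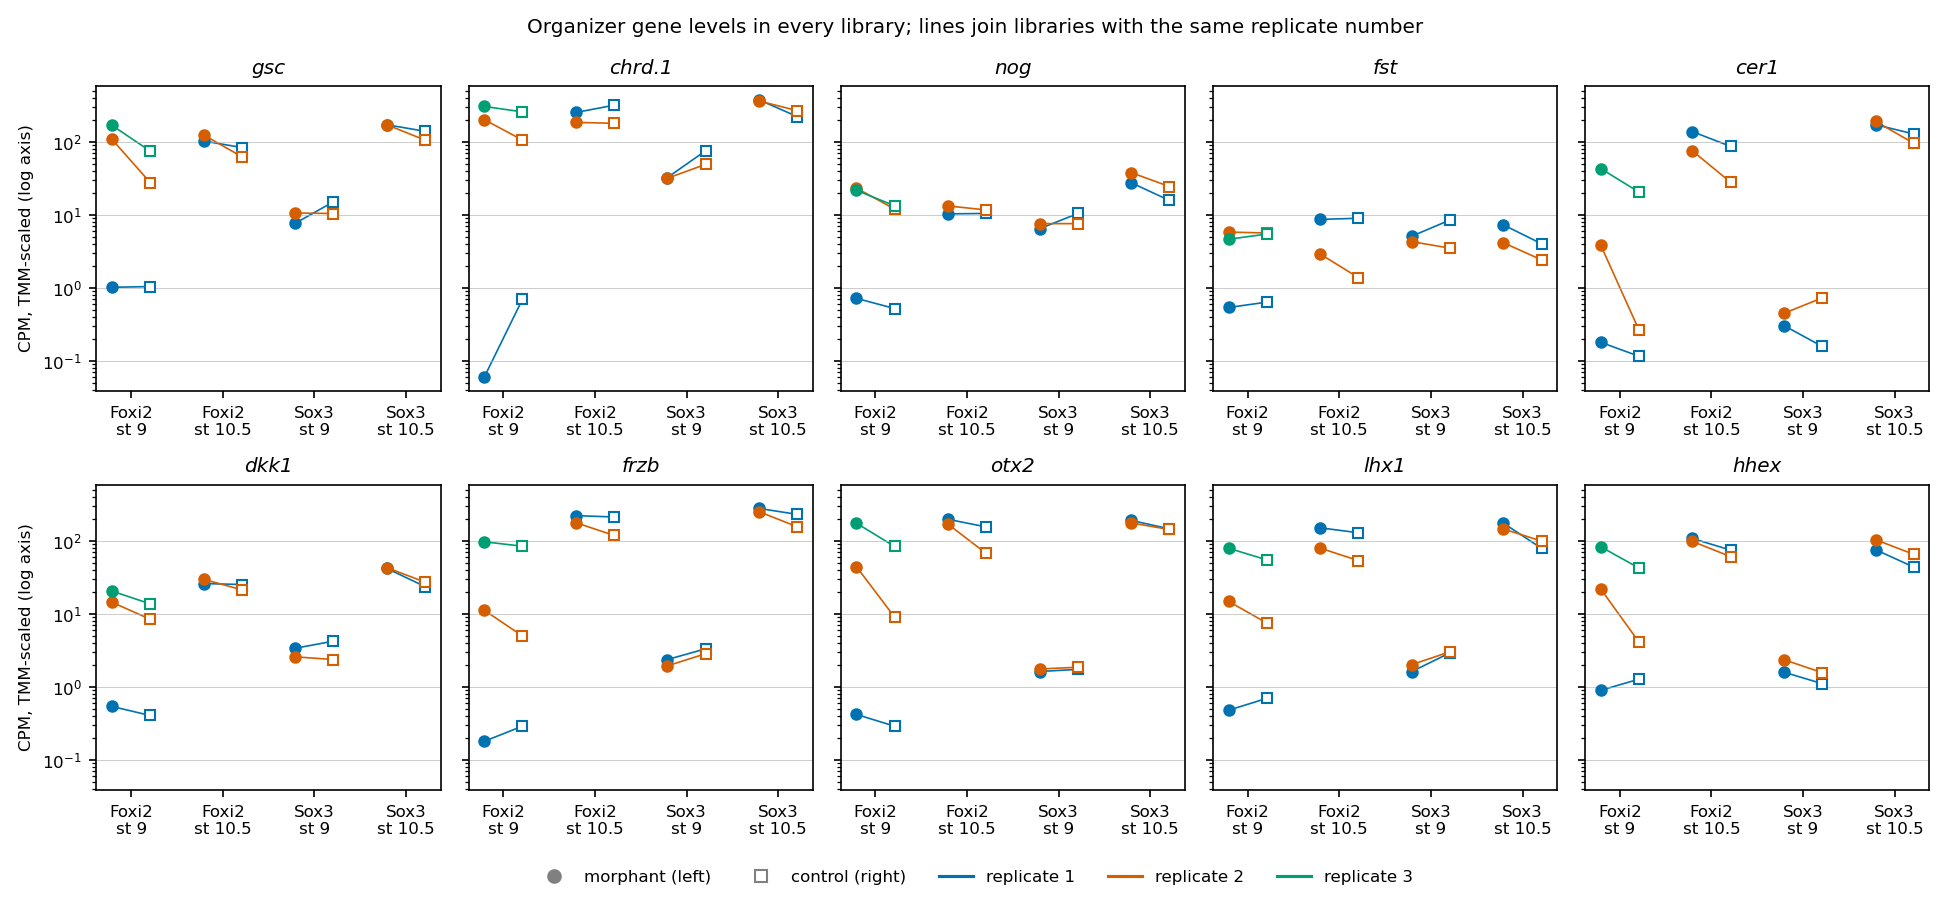
Level of each organizer gene in each of the 18 libraries, in TMM-scaled CPM on a log axis. In each panel, filled circles on the left are morphants, open squares on the right are controls, colours mark replicate numbers, and lines join libraries with the same number. The replicate 1 libraries of Foxi2 at stage 9 lie lowest in every panel but those of cer1 and hhex, where a Sox3 control of stage 9 lies between them.

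How the organizer genes change with stage was measured first in the Sox3 controls. Of the 10 genes, 8 were called higher at stage 10.5 than at stage 9, and none was called lower. A gene was called when it changed at least 2-fold with an adjusted p (Benjamini-Hochberg, edgeR quasi-likelihood test) under 0.05. Over all genes tested, 5.46% were called higher. The 8 genes had log2 fold changes of 1.87 to 7.84.

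The homeobox genes rose together. The gene gsc, a repressor that gave the organizer one of its first molecular markers, had 138.5 and 105 CPM at stage 10.5, against 15.0 and 10.4 CPM at stage 9 (log2 fold change 3.17, SE 0.28, adjusted p 0.00692 in edgeR). The head gene otx2 had 145 and 142 CPM at stage 10.5, against 1.73 and 1.85 CPM at stage 9 (log2 fold change 6.22, SE 0.20, adjusted p 0.0032). Replicates differed far less than stages for both genes. The LIM homeobox gene lhx1, which is needed for head formation in the mouse, had 78.4 and 98.5 CPM at stage 10.5, against 2.90 and 3.00 CPM at stage 9 (log2 fold change 4.80, adjusted p 0.00443). The anterior endoderm repressor hhex had 43.4 and 64.8 CPM at stage 10.5, against 1.099 and 1.56 CPM at stage 9 (log2 fold change 5.24, adjusted p 0.00496). In all 4 genes every stage 10.5 control lay above every stage 9 control.

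Among the secreted Wnt antagonists, frzb, a decoy that resembles the Wnt receptor, had 229 and 155 CPM at stage 10.5, against 3.296 and 2.82 CPM at stage 9 (log2 fold change 5.87, adjusted p 0.00443). The gene dkk1, whose product blocks the LRP co-receptors of Wnt, had 23.5 and 27.0 CPM at stage 10.5, against 4.198 and 2.35 CPM at stage 9 (log2 fold change 2.85, adjusted p 0.0123). The change with the highest fold of the 10 was that of cer1, which encodes an antagonist of Nodal, BMP and Wnt. It had 127 and 94.8 CPM at stage 10.5, against 0.157 and 0.724 CPM at stage 9 (log2 fold change 7.84, SE 0.62, adjusted p 0.00572).

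The genes chrd.1, nog and fst had the smallest log2 fold changes of the 10. The gene chrd.1, which encodes Chordin, had 220.1 and 265 CPM at stage 10.5, against 74.9 and 48.8 CPM at stage 9 (log2 fold change 1.87, adjusted p 0.0132). Noggin, from nog, had 15.7 and 24.3 CPM at stage 10.5, against 10.4 and 7.53 CPM at stage 9. Its log2 fold change of 1.06 was not called (adjusted p 0.0931), although the stages did not overlap. It was called by DESeq2 (adjusted p 0.0236), which called 7% of all genes higher. Follistatin, from fst, which binds activin and BMPs, had 3.99 and 2.398 CPM at stage 10.5, against 8.44 and 3.47 CPM at stage 9. The fst stages overlapped, and its log2 fold change of -0.99 was not called (adjusted p 0.291).

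Other lists of the same pathway gave a mixed picture over the same stages. Of 14 other organizer and dorsal genes tested, 8 were called higher and 2 lower, with a median log2 fold change of 1.19, beside 3.98 for the 10 organizer genes and -0.02 for all genes. Among the large changes in that list were those of frzb2, which had no reads in the stage 9 controls, of pkdcc.2 (6.51) and of pkdcc.1 (4.22). Among 23 BMP and ventral genes, 12 were called higher and 1 lower, with a median of 1.24. The largest changes were in gata2 (6.23), msx1 (4.79), ventx1.2 (2.93), all transcription factors of the ventral side, and bmp7.1, which was at the floor in the stage 9 controls. Among 24 genes of the signals upstream of the organizer, 8 were called higher and 2 lower. The largest changes there were in lef1 (4.21), a Wnt pathway factor, mixer (3.36), a mesendoderm homeobox gene, foxh1 (-2.99), the maternal partner of Smad proteins in Nodal signalling, and nodal2 (2.32).

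The Foxi2 controls gave no such test. The test called none of the 10 genes and 0% of all genes, with 0 of the 10 genes at an unadjusted p under 0.05 in edgeR. DESeq2 called 0 of the 10, beside 0.0252% of all genes. All 10 log2 fold changes were positive, from 0.36 to 3.05. The 3 controls of stage 9 differed from each other more than the stages did. As a percentage of the mean stage 10.5 control, gsc was at 1.43%, 37.9% and 102% in stage 9 replicates 1, 2 and 3. For otx2 the same percentages were 0.261%, 8.12% and 75.4%, and for cer1 they were 0.202%, 0.463% and 35.7%. Replicate 1 thus lay near no expression, replicate 3 lay near the stage 10.5 level for several genes, and replicate 2 lay between.

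The genes followed nearly the same order in the Sox3 controls and in replicate 2 of the Foxi2 controls, and less closely in replicate 3. In replicate 2 of the Foxi2 controls, nog and fst were already at 109% of the stage 10.5 mean. The genes chrd.1, gsc and dkk1 were at 42.6%, 37.9% and 36.2%, and lhx1, otx2, hhex, frzb and cer1 were at 8.21% or less. Over the 10 genes, Spearman's rho between the Sox3 control log2 fold change and the percentage was -0.95 for Foxi2 control replicate 2 and -0.77 for replicate 3. These are descriptions across genes, which share their libraries and are not independent.

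**Figure D2:**
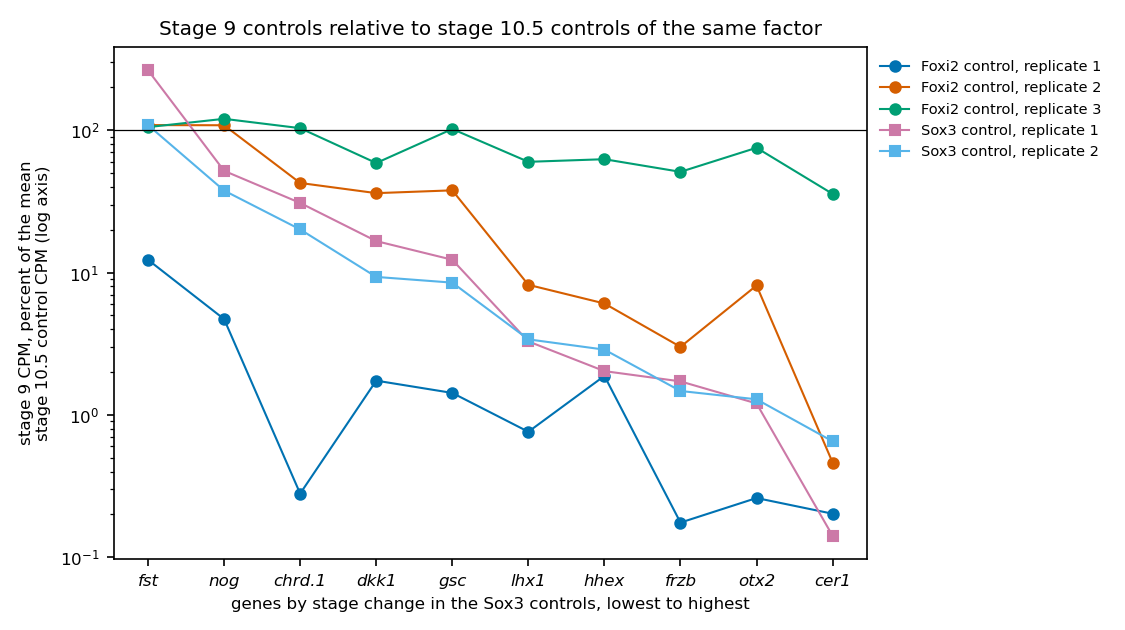
Level of each organizer gene in each stage 9 control, as a percentage of the mean stage 10.5 control of the same factor, on a log axis. Genes run from the lowest stage change in the Sox3 controls (fst) to the highest (cer1), and each line is a library. Foxi2 control replicate 3 lies between 35.7% and 120.4%, and replicate 1 of the Foxi2 controls lies at 12.3% or less.

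Whether Foxi2 knockdown changes organizer gene expression at stage 9 was asked next. Pair by pair, the organizer genes were mostly higher in Foxi2 morphants where they were expressed. In pair 2 all 10 genes were higher in the morphant, with a median log2 difference of 1.06, and in pair 3 there were 9, with a median of 0.64. In pair 1, where the genes were near the floor, 4 were higher and 6 lower, with a median of -0.12. Over all genes the median difference was 0.01 or less in each pair. The pair 2 differences ran from 0.04 for fst to 3.42 for cer1, the genes with the lowest and highest stage change in the Sox3 controls. The order between them was not the same, as gsc (1.96) lay above frzb (1.16) and lhx1 (0.97), which rose more with stage. The pair 2 value of cer1 rests on 64 counts in the morphant and 4 in the control. In pair 3 cer1 differed by 1.07, below gsc at 1.17. Beyond the stage label, the age of a morphant relative to its own control was not measured in any comparison. The part of age in the differences between morphants and controls was thus not tested.

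Among the homeobox genes, gsc had 1.01, 107 and 166.5 CPM in Foxi2 morphants 1, 2 and 3, against 1.03, 27.5 and 74.1 CPM in the controls with the same numbers. The gene otx2 had 0.416, 44.0 and 173 CPM in the morphants, against 0.288, 8.96 and 83.2 CPM in the controls. Both groups overlapped, because the replicates of a group spread over 71.6-fold or more, yet the morphant of pairs 2 and 3 was above its own control in both genes. The gene hhex had 0.892, 21.7 and 82.2 CPM in morphants, against 1.26, 4.08 and 42.2 CPM in controls, and lhx1 had 0.476, 14.7 and 78.6 CPM in morphants, against 0.690, 7.44 and 54.5 CPM in controls. These were higher in the morphants of pairs 2 and 3 and lower in that of pair 1.

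Of the secreted Wnt antagonists, cer1 had 0.178, 3.81 and 42.7 CPM in morphants, against 0.115, 0.263 and 20.3 CPM in controls. For dkk1 the levels were 0.535, 14.3 and 20.3 CPM in morphants, against 0.403, 8.36 and 13.6 CPM in controls. The dkk1 level was higher in the morphant of each pair, but in pair 1 this rests on 9 and 7 counts. The gene frzb had 0.178, 11.1 and 96.2 CPM in morphants, against 0.288, 4.94 and 83.9 CPM in controls, and its log2 difference shrank to 0.20 in pair 3. Again the ranges of the groups overlapped in all of these genes.

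Of the BMP antagonists, nog had 0.713, 23.1 and 21.5 CPM in morphants, against 0.518, 11.9 and 13.2 CPM in controls. It was higher in the morphant of each pair, but in pair 1 this rests on 12 and 9 counts. The gene chrd.1 had 0.0595, 200 and 303 CPM in morphants, against 0.690, 105 and 255 CPM in controls. Its pair 1 value rests on 1 and 12 counts. The gene fst had 0.535, 5.78 and 4.602 CPM in morphants, against 0.633, 5.60 and 5.42 CPM in controls, and its pairs differed by -0.23 to 0.04 on the log2 scale.

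The edgeR test without pairing called none of the 10 genes and 0% of all genes, with 0 of the 10 at an unadjusted p under 0.05. DESeq2 called 0 of the 10, beside 0.122% of all genes. The standard errors of the log2 fold changes were 1.08 to 2.24. Libraries with the same replicate number deviated together, so the test was also fitted with the replicate number as a block. With the block, gsc (log2 fold change 1.46, SE 0.21, adjusted p 0.023) and otx2 (1.53, SE 0.25, adjusted p 0.0335) were called higher, that is 2 of 10 genes, beside 0.273% of all genes called higher. The gene nog passed the adjusted p at less than 2-fold (0.80, SE 0.14, adjusted p 0.0382), as 0.883% of all genes did in that direction at any fold.

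Under the block cer1 had a log2 fold change of 1.45 (adjusted p 0.115), hhex 1.31 (0.124), dkk1 0.65 (0.0819), lhx1 0.64 (0.122), chrd.1 0.53 (0.293), frzb 0.49 (0.327) and fst -0.11 (0.859). Leaving out pair 1, which was chosen after seeing the data, gave 3 calls with the block, gsc (1.53, adjusted p 0.00589), otx2 (1.54, adjusted p 0.0192) and hhex (1.47, adjusted p 0.0348), beside 0.967% of all genes called higher. Without pair 2, otx2 alone was called (1.04, adjusted p 0.0417), beside 0.0758% of all genes called higher, and gsc was not (1.05, adjusted p 0.118). Without pair 3, otx2 alone was called (2.18, adjusted p 0.0238), beside 0.1%, and gsc was not (1.73, adjusted p 0.0657), and cer1 did not pass the filter on low counts. The call of otx2 with the block was thus kept in each of these fits, and that of gsc only with both expressed pairs. The fits without pair 2 or pair 3 each held only 1 expressed pair. The other was pair 1, where otx2 had 7 counts in the morphant and 5 in the control. The part of an age difference between morphant and control in these calls was not tested.

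**Figure D3:**
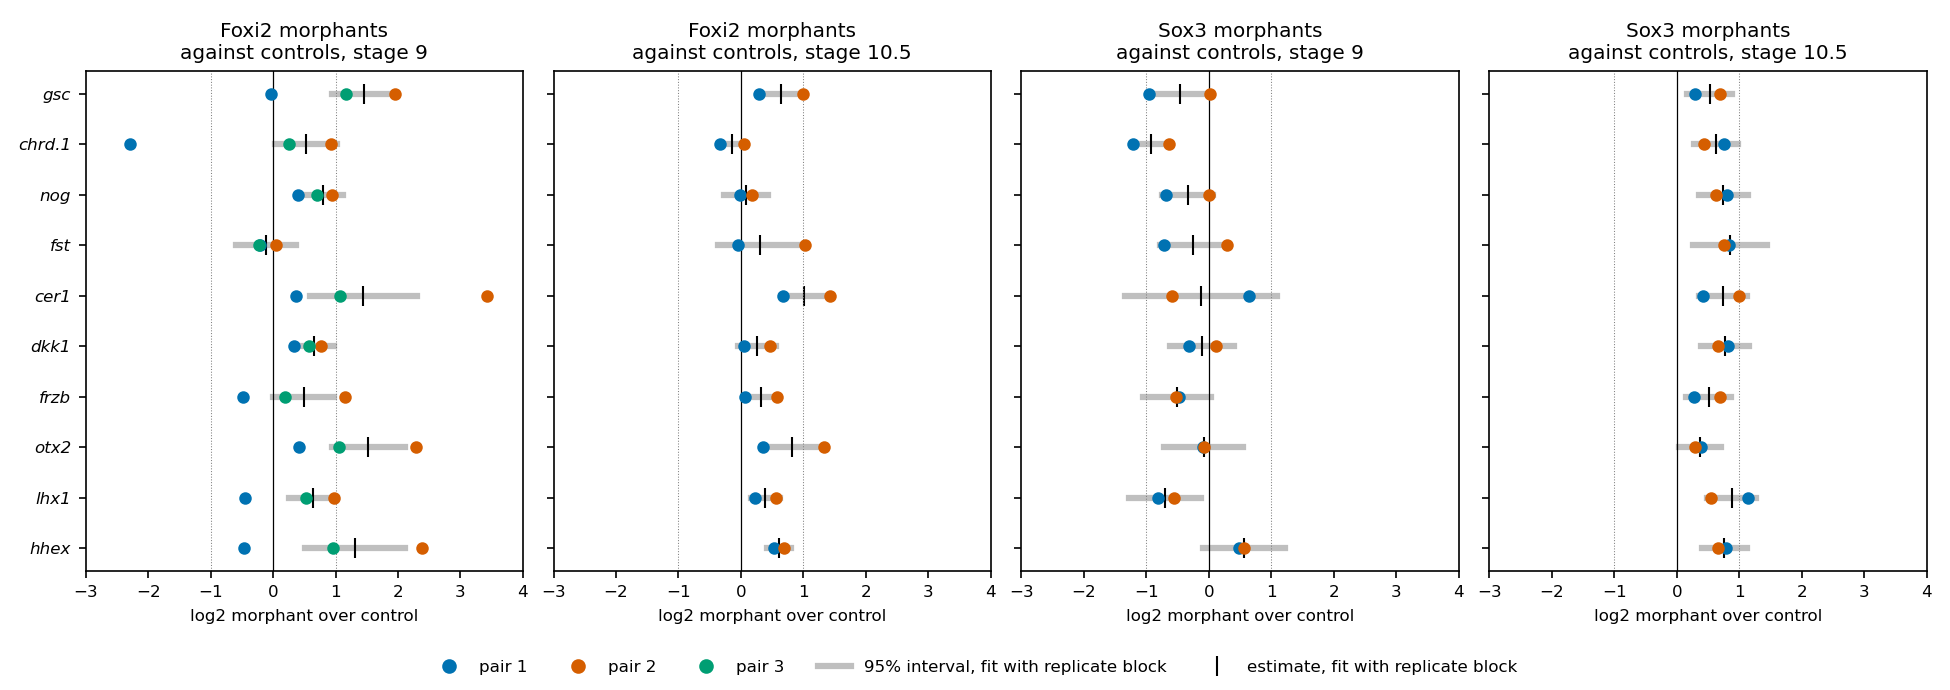
Change of each organizer gene in each knockdown comparison, as the log2 ratio of morphant over control. Dots are the replicate pairs (log2 CPM with a prior count of 2), black ticks and grey bars are the estimate and 95% interval of the edgeR fit with the replicate block, and dotted lines mark 2-fold. All 10 genes are right of 0 in both pairs for Sox3 at stage 10.5, while for Sox3 at stage 9 most lie left of 0 in pair 1 and 5 do in pair 2.

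The endoderm markers moved along with the organizer genes in Foxi2 morphants at stage 9. Their summed CPM differed by 0.03, 1.18 and 0.58 on the log2 scale between morphant and control in pairs 1, 2 and 3, beside -0.25, 1.27 and 0.62 for the organizer genes. The part of the endoderm signal in the organizer result was not tested. The mesoderm marker sums differed by -0.49, 0.63 and 0.25. With the block none of 7 endoderm markers tested and none of 6 mesoderm markers was called. Of 6 ectoderm markers 2 were called lower, foxi1 (-1.84) and krt70 (-1.33), and 2 had positive log2 fold changes. The ectoderm marker sums differed by 0.07, 0.14 and -0.26 in pairs 1, 2 and 3. The share of all genes called lower is not given here. Of 14 other organizer and dorsal genes tested, none was called and 13 had positive log2 fold changes, with a median of 0.37, beside 0.72 for the 10 organizer genes and 0.00 for all genes. Of 21 BMP and ventral genes, none was called and 18 were negative, with a median of -0.18. The summed CPM of that list differed by -0.04, -0.28 and 0.29 in pairs 1, 2 and 3 on the log2 scale. Of 23 upstream genes none was called, with a median of 0.01.

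At stage 10.5 the Foxi2 morphant was higher than its control for 7 of the 10 genes in pair 1 (median log2 difference 0.14). In pair 2 all 10 were higher, with a median of 0.63. Over all genes the median difference was -0.02 in pair 1 and 0.0004 in pair 2. The gene cer1 had 137 and 74.8 CPM in morphants 1 and 2, against 86.1 and 27.8 CPM in controls 1 and 2. The gene hhex had 107 and 97.5 CPM in morphants, against 74.2 and 60.4 CPM in controls. The gene gsc had 102 and 123 CPM in morphants, against 83.0 and 62.1 CPM in controls. In gsc and hhex both morphants lay above both controls, while for cer1 the second morphant lay below the first control. How many of all genes had groups without overlap at this stage was not counted.

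The head gene otx2 had 196 and 168 CPM in morphants, against 154 and 66.7 CPM in controls, which did not overlap. The gene lhx1 had 150 and 78.8 CPM in morphants, against 128 and 53.2 CPM in controls, and frzb had 219.8 and 176 CPM in morphants, against 211 and 118 CPM in controls. These were higher in the morphant of both pairs, with overlapping groups. For dkk1 the levels were 25.8 and 29.5 CPM in morphants and 25.0 and 21.2 CPM in controls, with no overlap. As the share over all genes was not counted, the lack of overlap only describes otx2 and dkk1.

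The antagonists chrd.1, nog and fst were all lower in the morphant of pair 1 and all higher in that of pair 2. The gene chrd.1 had 250.4 and 183 CPM in morphants, against 315 and 178 CPM in controls. The gene nog had 10.2 and 13.1 CPM in morphants, against 10.4 and 11.6 CPM in controls, and fst had 8.60 and 2.89 CPM in morphants, against 8.92 and 1.37 CPM in controls. The pair 1 differences were -0.02 for nog and -0.05 for fst on the log2 scale.

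The unpaired edgeR test called none of the 10 genes and 0% of all genes. It gave 2 of the 10 an unadjusted p under 0.05, beside 277 of all 13215 genes tested. DESeq2 called 0 of the 10, beside 0.234% of all genes. With the block cer1 was called higher (log2 fold change 1.02, SE 0.16, adjusted p 0.014), 1 of 10 genes, beside 0.855% of all genes. The gene hhex passed the adjusted p below 2-fold (0.61, SE 0.08, adjusted p 0.00882), and 3.04% of all genes passed it in that direction at any fold. The genes gsc (0.64, adjusted p 0.0512), otx2 (0.82, adjusted p 0.0546) and lhx1 (0.39, adjusted p 0.0634) lay just over the adjusted p threshold. They were also below the 2-fold that a call needs. With the block, the intervals of the remaining genes on the log2 scale were 0.05 to 0.59 for frzb and -0.05 to 0.56 for dkk1. They were -0.36 to 0.98 for fst, -0.27 to 0.44 for nog and -0.36 to 0.07 for chrd.1. A fall of chrd.1 by 2-fold lay outside its interval with the block only. Without the block its edgeR interval was -1.15 to 0.79, which includes such a fall.

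Among the other organizer and dorsal genes at stage 10.5, 1 of 15 was called with the block in Foxi2 morphants, nodal3.1 (log2 fold change 1.32, adjusted p 0.00636), a Nodal family gene of the organizer in Xenopus that responds to maternal Wnt signalling. No gene of 24 in the BMP and ventral list and none of 23 upstream genes was called, with medians of -0.08 and 0.00. The summed CPM of the BMP and ventral list was higher in the morphants, by 0.27 in pair 1 and 0.22 in pair 2 on the log2 scale. The endoderm marker sums were higher by 0.30 and 0.61 on the log2 scale in the morphants of pairs 1 and 2, beside 0.14 and 0.66 for the organizer genes, and 1 of 8 endoderm markers was called higher (foxa1, 1.09). Mesoderm marker sums differed by 0.03 and 0.27. Their part in the organizer values was not tested. The difference of the Foxi2 effect between stages was tested as an interaction and none of the 10 genes was called (all adjusted p 1, with and without the block), as with 0% of all genes under the block.

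In Sox3 morphants at stage 9 the organizer genes leaned the other way. In pair 1, 8 of 10 were lower in the morphant, with a median log2 difference of -0.58. In pair 2, 5 of 10 were lower, with a median of -0.04, beside -0.01 over all genes in each pair. With the replicate block the gene with the lowest adjusted p was chrd.1, which had 32.2 and 31.5 CPM in Sox3 morphants, against 74.9 and 48.8 CPM in their controls.

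The lhx1 levels were 1.61 and 2.003 CPM in morphants, against 2.90 and 3.00 CPM in controls, and those of frzb were 2.35 and 1.93 CPM in morphants, against 3.296 and 2.82 CPM in controls. Both morphants lay below both controls in lhx1 and frzb as in chrd.1. The share of all genes with groups apart in this way was not counted. The gene hhex had 1.58 and 2.34 CPM in morphants, against 1.099 and 1.56 CPM in controls, higher in the morphant of both pairs. For otx2 the levels were 1.61 and 1.74 CPM in morphants and 1.73 and 1.85 CPM in controls, and the pairs differed by -0.09 and -0.08 on the log2 scale.

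The remaining genes had pairs that went different ways or a pair without a difference. The gene gsc had 7.62 and 10.5 CPM in morphants, against 15.0 and 10.4 CPM in controls. The gene nog had 6.41 and 7.53 CPM in morphants, against 10.4 and 7.53 CPM in controls, and fst had 5.07 and 4.27 CPM in morphants, against 8.44 and 3.47 CPM in controls. In these genes the pair 1 control lay above the other libraries. The gene dkk1 had 3.36 and 2.56 CPM in morphants and 4.198 and 2.35 CPM in controls, and cer1, near the floor, had 0.302 and 0.445 CPM in morphants and 0.157 and 0.724 CPM in controls.

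The unpaired edgeR test called none of the 10 and 0% of all genes. It gave 1 of the 10 an unadjusted p under 0.05, beside 392 of all 13909 genes tested. DESeq2 called 0 of the 10, beside 0.433% of all genes. With the block, 0 of 10 were called at 2-fold, beside 1.01% of all genes called lower. With it chrd.1 passed the adjusted p at less than 2-fold (log2 fold change -0.92, SE 0.13, interval -1.22 to -0.62, adjusted p 0.00342), and 1.88% of all genes passed it in that direction at any fold. The next were lhx1 (-0.71, adjusted p 0.31), frzb (-0.51, adjusted p 0.53) and gsc (-0.47, adjusted p 0.468).

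Called lower with the block at that stage were 1 of 11 other organizer and dorsal genes, sfrp2 (log2 fold change -2.13, adjusted p 2e-05), which encodes a secreted Wnt antagonist, and 1 of 24 upstream genes, eomes (-1.04, adjusted p 0.000142), a T-box gene of the mesendoderm. None of 20 BMP and ventral genes was called and 17 were negative, with a median of -0.25. The mesoderm marker sums were lower by more than the organizer sums in pair 2, with 85.1 and 81.1 CPM in morphants against 164 and 133 CPM in controls, and 2 of 6 mesoderm markers were called lower, tbxt (-2.32) and eomes. The organizer genes summed to 62.1 and 64.8 CPM in morphants, against 122 and 82.5 CPM in controls. Endoderm marker sums were 117 and 182 CPM in morphants and 121 and 178 CPM in controls. The part of the mesoderm signal in the chrd.1 value was not tested.

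At stage 10.5 all 10 organizer genes were higher in the Sox3 morphant in both pairs. The median log2 difference was 0.78 in pair 1 and 0.66 in pair 2, beside -0.02 over all genes in each pair. The differences ran from 0.27 to 1.14, so each was modest, and they had one direction. The genes share their libraries, and how many of all genes were higher in both pairs was not counted.

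Among the BMP antagonists, chrd.1 had 373 and 359.5 CPM in Sox3 morphants, against 220.1 and 265 CPM in their controls. The gene nog had 27.3 and 37.6 CPM in morphants, against 15.7 and 24.3 CPM in controls, and fst had 7.23 and 4.12 CPM in morphants, against 3.99 and 2.398 CPM in controls. Both morphants lay above both controls in each of the 3 genes.

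Of the Wnt and Nodal antagonists, dkk1 had 41.6 and 42.6 CPM in morphants, against 23.5 and 27.0 CPM in controls. The gene cer1 had 171 and 189 CPM in morphants, against 127 and 94.8 CPM in controls, and frzb had 276 and 249 CPM in morphants, against 229 and 155 CPM in controls. These groups did not overlap either. The morphants of dkk1 differed from each other by 1.02-fold, far less than from the controls.

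Of the homeobox genes, lhx1 had 173 and 144 CPM in morphants, against 78.4 and 98.5 CPM in controls, and hhex had 75.1 and 103 CPM in morphants, against 43.4 and 64.8 CPM in controls. The gene gsc had 170 and 169.9 CPM in morphants, against 138.5 and 105 CPM in controls, and otx2 had 189 and 174.5 CPM in morphants, against 145 and 142 CPM in controls. No organizer gene had overlapping groups at this stage in the Sox3 series. How many of all genes had groups without overlap was not counted, so this only describes genes that share their libraries.

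In the unpaired edgeR test none of the 10 genes and 0% of all genes were called. It gave 7 of the 10 an unadjusted p under 0.05, beside 795 of all 14427 genes tested. DESeq2 called 0 of the 10, beside 1.23% of all genes. With the block 0 of 10 were called at 2-fold, beside 1.87% of all genes called higher. However, 6 of 10 passed the adjusted p at less than 2-fold, beside 2.61% of all genes that passed it in that direction at any fold. These were lhx1 (log2 fold change 0.88, SE 0.18, adjusted p 0.0121), hhex (0.76, adjusted p 0.0178), dkk1 (0.77, adjusted p 0.0216), cer1 (0.74, adjusted p 0.0269), nog (0.75, adjusted p 0.0314) and chrd.1 (0.63, adjusted p 0.0388). The others were fst (0.85, adjusted p 0.107), gsc (0.53, adjusted p 0.105), frzb (0.51, adjusted p 0.111) and otx2 (0.37, adjusted p 0.253).

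The BMP and ventral list went the other way at this stage in Sox3 morphants. Its summed CPM was 2154 and 2323 in morphants, against 3069 and 2714 in controls, while the organizer genes summed to 1503 and 1473 CPM in morphants, against 1024 and 979 CPM in controls. With the block, 18 of 23 BMP and ventral genes had negative log2 fold changes, with a median of -0.25, beside 0.75 for the organizer genes and 0.01 for all genes. Called lower were szl (-1.97, adjusted p 0.000738), which encodes Sizzled, a ventral inhibitor of Chordin-cleaving proteases, and bmp7.2 (-1.53, adjusted p 0.000109). The share of all genes called lower in this comparison is not given here, so calls of lower genes are not set against it. Called higher was bmp7.1 (1.31, adjusted p 0.0351). The bmp7 rows are related genes between which reads could be split, so their opposite changes are uncertain. At stage 9 the BMP and ventral list had leaned negative too with the block (17 of 20 genes), as had 9 of the 10 organizer genes.

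Of 16 other organizer and dorsal genes, 13 were positive with the block, with a median of 0.27, and sfrp2 was called lower (-1.14, adjusted p 0.00152). None of 24 upstream genes was called, with a median of 0.04. Mesoderm marker sums were 1010 and 1074 CPM in Sox3 morphants and 1006 and 1134 CPM in controls. Of 7 mesoderm markers 1 was called higher, msgn1 (1.52), and the log2 fold changes of the 7 ran from -0.99 to 1.52. Endoderm marker sums were 1388 and 2257 CPM in morphants, against 1245 and 1704 CPM in controls, a log2 difference of 0.16 and 0.41, beside 0.55 and 0.59 for the organizer genes. Of 7 ectoderm markers 3 were called lower, dlx3 (-2.80), tfap2a (-1.76) and krt7 (-1.16), while 3 had positive log2 fold changes. The ectoderm marker sums differed by -0.33 in pair 1 and 0.03 in pair 2 on the log2 scale. The part of these markers in the organizer values was not tested.

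**Figure D4:**
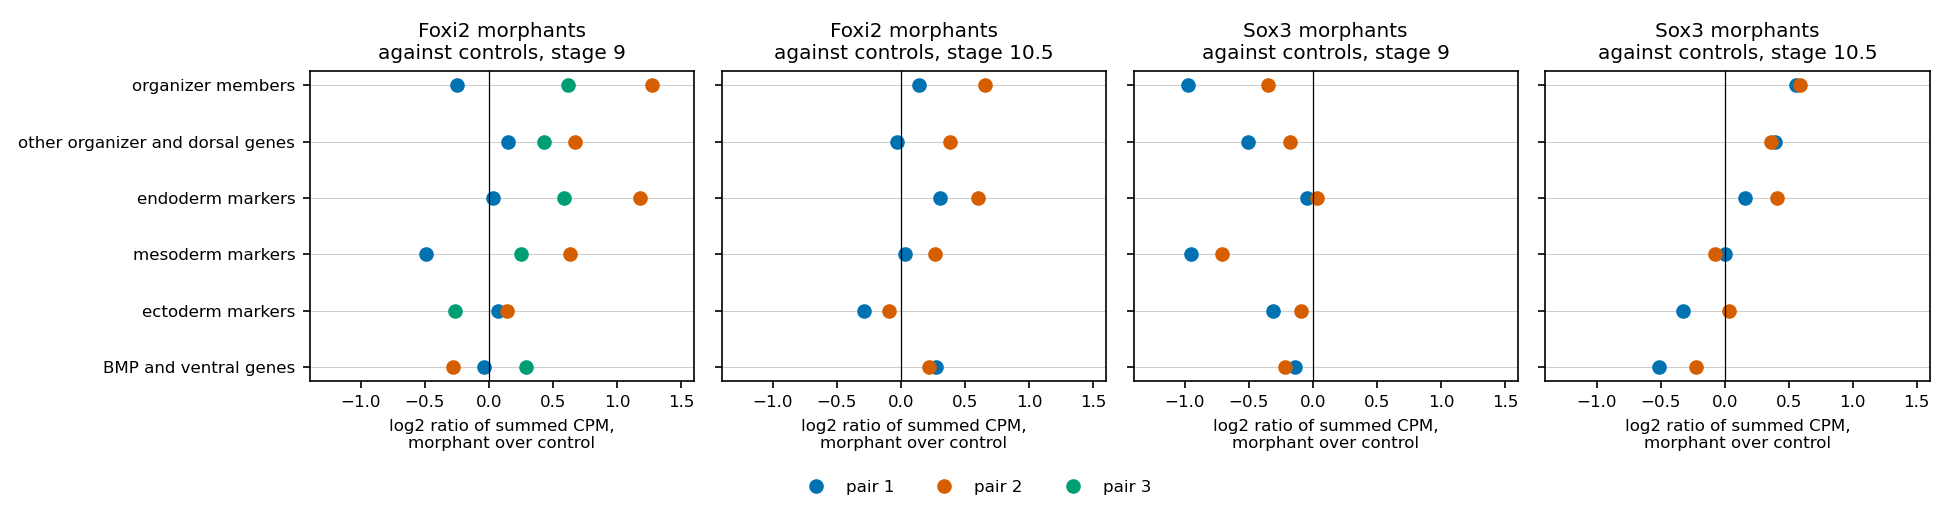
Summed CPM of the organizer genes and of 5 other lists in each replicate pair, as the log2 ratio of morphant over control. Each dot is a pair, coloured by its number. For Sox3 at stage 10.5 the organizer genes lie at 0.55 and 0.59, the mesoderm markers at 0.01 and -0.08 and the BMP and ventral genes at -0.51 and -0.22.

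Whether the knockdowns differ from each other was tested as an interaction. Each factor had its own controls, and their levels at stage 9 were unlike. The organizer genes summed to 5.93, 184 and 645.5 CPM in the Foxi2 controls and to 122 and 82.5 CPM in the Sox3 controls. A difference between the knockdowns thus cannot be told apart from one between the 2 sets of embryos, such as in age. At stage 9 without the block, no organizer gene was called (all adjusted p 1 in edgeR, beside 0% of all genes), and DESeq2 called 0 of the 10, beside 0.0718% of all genes. With the block, 4 of 10 genes were called, beside 0.873% of all genes called higher. In each of the 4 the Foxi2 log2 fold change was above the Sox3 log2 fold change. The differences of log2 fold changes were 1.93 for gsc (SE 0.36, adjusted p 0.0232), 1.46 for chrd.1 (SE 0.30, adjusted p 0.0361), 1.35 for lhx1 (SE 0.28, adjusted p 0.0431) and 1.15 for nog (SE 0.25, adjusted p 0.0492). The same 4 genes were called without Foxi2 pair 1, with adjusted p of 0.0104 for gsc, 0.00927 for chrd.1, 0.0157 for lhx1 and 0.0399 for nog, beside 1.23% of all genes. The differences of the other genes ran from 0.15 for fst to 1.70 for cer1, and their intervals reached from -0.64 for fst to 3.52 for cer1.

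At stage 10.5 no difference between the knockdowns was called for an organizer gene, in edgeR with or without the block or in DESeq2, beside 1.22% of all genes called in either direction with the block and 0.208% in DESeq2. The largest was that of chrd.1 (-0.76, interval -1.18 to -0.34, adjusted p 0.106), with the Foxi2 log2 fold change below that of Sox3.

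**Figure D5:**
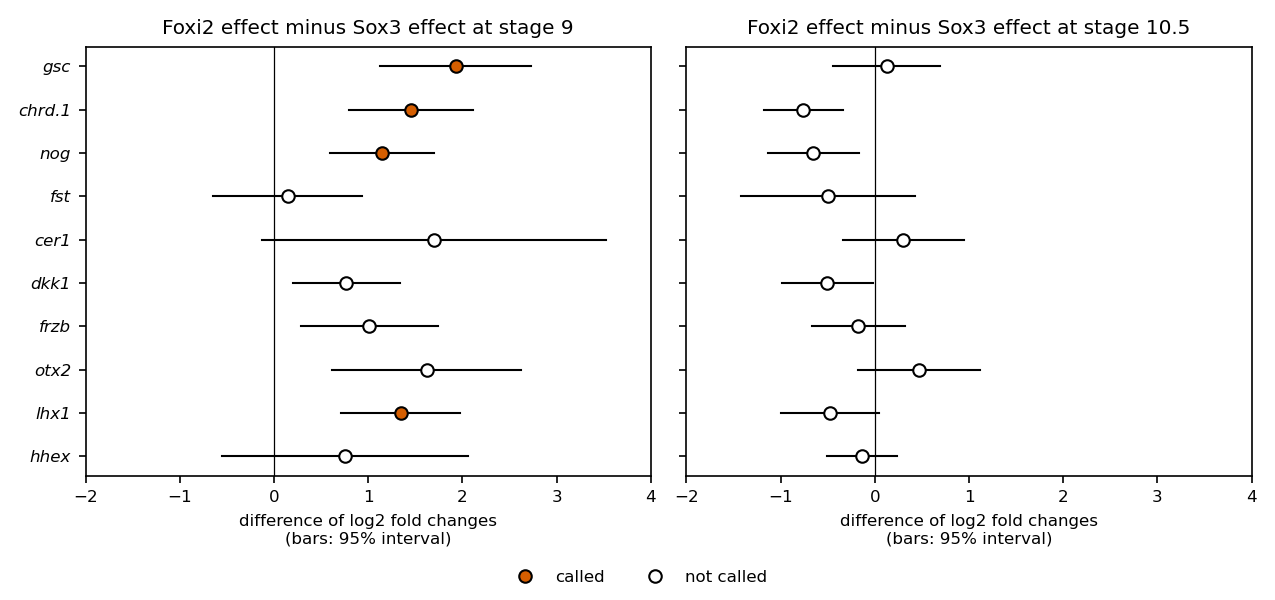
Foxi2 effect minus Sox3 effect on each organizer gene, as the difference of log2 fold changes in the edgeR fit with the replicate block, at stage 9 on the left and stage 10.5 on the right. Bars are 95% intervals and filled points were called, namely gsc (1.93), chrd.1 (1.46), nog (1.15) and lhx1 (1.35) at stage 9 and none at stage 10.5.

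The Sox3 effect was more positive at stage 10.5 than at stage 9 for all 10 genes, by 0.20 to 1.59 on the log2 scale. In edgeR none of these differences was called, without the block (adjusted p 0.739 for lhx1 and 0.833 for chrd.1) or with it (0.199 for lhx1 and 0.121 for chrd.1, beside 0.0336% of all genes called higher). DESeq2 called 2 of the 10, chrd.1 (1.57, SE 0.32, adjusted p 0.000882) and lhx1 (1.58, SE 0.35, adjusted p 0.00463), beside 0.102% of all genes called higher. The call therefore depends on the tool.

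Over all 18 libraries, the genes whose log2 CPM ran most like gsc were sox17a (Pearson r 0.984), dkk1 (0.981), crx (0.980), foxa4 (0.978) and snai1 (0.978), among 15317 genes. Those most like chrd.1 were kirrel2 (0.984), grhl3 (0.984), LOC101734579 (0.978), znf750 (0.978) and LOC101733825 (0.974). These correlations are descriptions, since the libraries share stages, pairs and the low replicate 1. Of the other organizer genes, dkk1 ranked 2 among the genes most like gsc, and nog, at rank 50, came nearest to chrd.1. The gene fst ran least like gsc, with r 0.61, and cer1 ran least like chrd.1, with r 0.72.

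The genes lie apart in the genome. In the RefSeq annotation of the X. tropicalis assembly, gsc (88446481 to 88449211) and otx2 (104113601 to 104120481) are on chromosome 8, and dkk1 (13846118 to 13850836) and hhex (25591485 to 25602685) on chromosome 7. The genes cer1 (124203269 to 124206964) and fst (192424484 to 192431493) are on chromosome 1, lhx1 (75674754 to 75685632) on chromosome 2, chrd.1 (99617614 to 99632788) on chromosome 5, frzb (62056741 to 62070685) on chromosome 9 and nog (25898656 to 25899324) on chromosome 10. These are gene spans, and counts cover the exons of the whole gene.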

How the data were processed

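Whole-embryo RNA-seq of Foxi2 and Sox3 morphants and controls was deposited as 4 tables of RSEM expected counts, 1 column per library. The submitters' processing notes name RSEM 1.2.12 and Bowtie2 2.2.7, while the study's methods name STAR and the X. tropicalis V10 genome and call the counts normalized. The deposited totals differ, so they were taken as unscaled. No column was left out. The expected counts were rounded, scaled (TMM), filtered (filterByExpr) and tested with edgeR 4.0.16 quasi-likelihood in R 4.3.3, each comparison alone. Calls needed a Benjamini-Hochberg adjusted p under 0.05 over all genes and 2-fold. The fits were also run on simulated data, drawn with the replicate block built in. That check assumes the pairing and cannot show whether it holds.

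Morphant and control libraries with the same number had correlated deviations from their group means (r 0.799 to 0.94 in the 3 pairs of Foxi2 at stage 9). In groups of 2 both pairs share 1 value by construction (0.748 to 0.865), which is weaker evidence. The numbers were read as pairs, from the values. Alternatives were the replicate block, DESeq2 1.42.0, other scalings, no filter and each library left out. Leaving out whole pairs was chosen after seeing the data. Standard errors are the log2 fold change over the root of the F statistic, and log2 CPM used a prior count of 2. Floors of 3 counts cover counting error only.

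The members and lists were chosen with earlier results of these data known. All members are named, with at most 4 called genes of each other list and comparison. A gene that this rule names is not reported here. Exon lengths and promoter sequences were not used here, so levels are not compared between genes.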

Additional observations from a re-analysis of the deposited data

Results flagged for a closer look

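Between the knockdowns, the edgeR interaction test with the replicate block called 4 organizer genes at stage 9. Their log2 fold changes were more positive in Foxi2 morphants than in Sox3 morphants. The differences of log2 fold changes were 1.93 for gsc (adjusted p 0.0232), 1.46 for chrd.1 (adjusted p 0.0361), 1.15 for nog (adjusted p 0.0492) and 1.35 for lhx1 (adjusted p 0.0431), and none was called without the block. Foxi2 morphants of pairs 2 and 3 were higher than their controls in all 4 genes, while that of pair 1, near the floor, was higher for nog (0.40 on the log2 scale) and differed by -0.03 for gsc, -2.29 for chrd.1 and -0.46 for lhx1. The Sox3 morphant of pair 1 was lower than its control in all 4, and that of pair 2 differed by 0.03 for gsc, -0.63 for chrd.1, 0.00 for nog and -0.56 for lhx1. Each factor had its own controls, with unlike levels at stage 9. A difference between the knockdowns cannot be told apart from one between these sets of embryos.

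Between stages, the Sox3 effect differed in DESeq2 for chrd.1 (1.57 on the log2 scale, adjusted p 0.000882) and lhx1 (1.58, adjusted p 0.00463), being negative in both pairs at stage 9 and positive in both pairs at stage 10.5. The edgeR test did not call them, with an adjusted p of 0.833 for chrd.1 and 0.739 for lhx1 without the block.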

How the results depend on the processing

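The calls in the knockdown comparisons depended on the replicate block. For Foxi2 at stage 9 the number of organizer genes called was 0 without it, 2 with it, 3 with pair 1 also left out, and 1 with pair 2 or pair 3 left out instead. For Foxi2 at stage 10.5 it was 0 without the block and 1 with it. The counts for Sox3 were 0 at both stages under every alternative, and 8 or 9 in the Sox3 controls between stages, where the block also called nog (adjusted p 0.00315) and gave fst -0.92 (adjusted p 0.0178). The shared numbers of these controls (correlation 0.748) and of the Foxi2 controls (-0.46 and 0.06) were not read as pairs across stages. The block for Sox3 at stage 10.5, on which 6 adjusted p under 0.05 rest, also has 2 pairs and a correlation of 0.748, so its pairing is no better shown. The block made no call in the Foxi2 controls. The difference of the Foxi2 effect between stages for frzb was 0.01, and -0.14 with the block. The cause of these changes was not tested.

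Leaving out each library in turn, without the block, changed the sign of 29 uncalled log2 fold changes, and the other 241 kept their direction. No knockdown value was called before or after, so this says nothing of the stability of a call there. In groups of 2 a lone library was assumed to vary like the other group. For Foxi2 at stage 9 the ranges were -1.82 to 6.34 for cer1, -0.29 to 1.68 for chrd.1, -0.028 to 1.43 for dkk1, -2.42 to 3.80 for frzb, -0.61 to 0.41 for fst, -0.51 to 3.73 for hhex, -1.48 to 2.96 for lhx1 and -0.50 to 3.99 for otx2. For Foxi2 at stage 10.5 they were -0.53 to 0.30 for chrd.1, -0.082 to 0.76 for frzb, -0.85 to 2.08 for fst, -0.21 to 1.12 for lhx1 and -0.087 to 0.25 for nog. For Sox3 at stage 9 they were -0.94 to 1.23 for cer1, -0.50 to 0.34 for dkk1 and -0.85 to 0.43 for fst, and between stages in the Foxi2 controls -1.49 to 1.201 for fst and -0.19 to 0.84 for nog. Low counts of all the organizer genes in the replicate 1 libraries of Foxi2 limit their stage 9 values. They were lowest for cer1, frzb and chrd.1 in the morphant. In morphant and control, otx2 had 7 and 5 counts and gsc 17 and 18.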
